A study of Rattus norvegicus with 46 samples.

Results

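Rat supraspinatus tendons that had been cut, with the subacromial bursa taken out in the same operation, were compared between day 14 and day 3 after surgery. The supraspinatus is a tendon of the rotator cuff, and the bursa is a lubricated sac between it and the bone above. Of 46 libraries in the series, 12 belong to this comparison, 6 labelled supraspinatus day 3 bursa removed and 6 labelled supraspinatus day 14 bursa removed. They were chosen by their labels alone. The rats (Rattus norvegicus) of both groups carried the same 2 injuries, the tenotomy and the bursectomy, so the group labels differ only in the day. Library numbers run in a separate block for each day, so an effect of library order cannot be told apart from the day. Strain, sex and age are not given in the labels. A further 6 tendons at each day had the same tenotomy with the bursa left intact, and 5 control tendons came from rats that were not operated on. The remaining 17 libraries of the series are bursa and were not used in the tests. The series gives 6 replicates per time point. Which rat gave which library is not in the labels, so p-values measure only the spread between libraries, part of which may be technical.

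A cut tendon first fills with blood, inflammatory cells and dividing cells. Fibroblasts then lay down a provisional, collagen-rich scar, which is slowly remodelled by proteases, crosslinking enzymes and mechanical load. Tendon cells are marked by the transcription factors Scleraxis (Scx) and Mohawk (Mkx), by the membrane protein tenomodulin (Tnmd), and by small proteoglycans that space the collagen fibrils. Near the bone a rotator cuff tendon also holds fibrocartilage, and at its other end it joins muscle.

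Levels are given as CPM, the transcript's counts relative to the library's total after scaling for composition. A change is the log2 fold change of day 14 over day 3 with its standard error from 1 edgeR quasi-likelihood fit of all 29 tendon libraries, and its p is adjusted by the Benjamini-Hochberg method over all 16302 features tested. A gene is said to have risen or fallen where that adjusted p was under 0.05. By this rule 3652 features rose (22.4%) and 3686 fell (22.6%), and the median change of all features was -0.02. In 13.6% of features all 6 day 14 libraries lay above all 6 day 3 libraries, and in 10.9% they lay below. Counts of listed genes below are to be read against these shares. The lists and their members were chosen with earlier results of these data known. Such a count is therefore a description and not a test of the list. The count table names transcripts without symbols, so symbols were attached by matching values to the authors' gene tables, and 12917 of the features tested carried one. Of these, 24.1% rose and 25.1% fell. A few names rest on the loosest matching step and are marked as less certain where they appear.

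Total estimated counts were 14.3 to 17.2 M in the day 3 libraries (mean 15.5 M ± 1.02, SD, n = 6) and 16.6 to 22.1 M in the day 14 libraries (19.7 M ± 2.62, n = 6). Depth thus differed between the days (exact permutation test, two-sided, p = 0.00649). Transcripts of the mitochondrial genome made up 15.7% ± 4.98 of counts at day 3 and 10.5% ± 2.85 at day 14 (exact permutation test, two-sided, p = 0.0346). Day 3 replicate 1 stood apart, with 25.4% against 11.7 to 15.5% in the other 5 libraries, and without it the same exact permutation test gave p = 0.0628. Its 10 adult muscle genes summed to 25211 CPM, against 2815 to 8596 CPM in the other day 3 libraries and 4668 to 20908 CPM at day 14, and none of these genes was at 0 in any of the 12 libraries. Its median rank correlation with its own group was 0.950. List counts that move by 1.5 times or more without this library are given both ways below, and smaller shifts, of 1 or 2 genes in a list, are not.

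Most genes that mark tendon cells rose. Of 13 tested, 11 rose and 0 fell, with a median change of 1.58 against -0.02 over all features. The summed level of the list was 2157 to 2863 CPM at day 3 and 8060 to 9097 CPM at day 14, so the groups did not overlap. In bulk tissue, fewer cells of a type and less RNA per cell cannot be told apart, here or below.

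Tnmd ranged from 63.3 to 116 CPM at day 3 (median 88.7) and from 1215 to 1754 CPM at day 14 (median 1420). Every day 14 library lay far above every day 3 library, and the change was 4.09 ± 0.29 (adjusted p = 3.0e-11). Scx, which switches on tendon genes in the embryo and after injury, went from 16.9 to 35.8 CPM (median 22.5) to 45.7 to 109 CPM (median 62.5), a change of 1.58 ± 0.23 (adjusted p = 2.3e-06). Mkx, which keeps tendon cells in their mature state, ranged from 1.42 to 3.99 CPM at day 3 and from 5.11 to 7.17 CPM at day 14. Neither transcription factor showed any overlap between the days.

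Several matrix genes of tendon cells rose further. Fibromodulin (Fmod), which binds collagen fibrils, had 396 to 551 CPM at day 3 and 2021 to 2618 CPM at day 14, and rose by 2.25 ± 0.23 (adjusted p = 7.0e-09). Keratocan (Kera), of the same family, had 28.6 to 64.9 CPM at day 3 and 357 to 632 CPM at day 14. The cartilage intermediate layer protein gene Cilp2 rose by 4.09 ± 0.34, from 12.1 to 31.1 CPM up to 299 to 393 CPM. Ptx4, a secreted pentraxin, had under 1 CPM in each day 3 library and 13.4 to 27.6 CPM at day 14, a change of 5.03 ± 0.40. These 4 genes had no overlapping libraries. The smallest rises that passed were those of the thrombospondin Thbs4 (1.00 ± 0.14) and the related Cilp (1.14 ± 0.27).

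The 2 tendon cell genes that did not pass were Chad and Egr1. Chondroadherin (Chad) is a leucine-rich protein of the same family as Fmod. It had 404 to 1848 CPM in control tendon, 2.21 to 18.7 CPM at day 3 and 3.81 to 20.3 CPM at day 14. It was thus at a small part of the control level on both days, and its change was 0.82 ± 0.51 (adjusted p = 0.19). The highest day 3 value came from replicate 1, without which the change was 1.51 (adjusted p = 0.014). The immediate early factor Egr1, which also drives collagen genes in tendon, had a change of 0.09 ± 0.29 (adjusted p = 0.82). In the authors' deposited table Comp, the cartilage oligomeric matrix protein of tendon, had a log2 change of 0.32 (adjusted p = 0.25).

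Set against the 5 control tendons, the tendon cell genes fell into different classes at day 14. Tnmd was above control (2.46, adjusted p = 4.4e-08, for day 14 minus control), as were Scx (1.33) and Ptx4 (2.47). Kera (-0.11, adjusted p = 0.79), Fmod (-0.27, adjusted p = 0.30) and Cilp2 (-0.29, adjusted p = 0.43) did not pass against control at day 14, after 3.28, 2.52 and 4.38 below it at day 3. Mkx (-0.72), Cilp (-1.48) and Tppp3 (-1.38), a gene of tendon sheath cells, were still below control. At day 14, 5 of the 13 genes were higher than control and 5 were lower, while at day 3, 1 was higher and 10 were lower. Over all features 62.9% differed from control at day 3 (30.8% higher and 32.1% lower) and 65.2% at day 14 (33.2% higher and 32% lower), so a difference from control is common here. Control tendons also had more muscle RNA, with a mean level of the 10 adult muscle genes of 11.8 (mean log2 CPM) against 8.83 at day 3 and 9.28 at day 14. With that level as a covariate, an alternative added after seeing the data, day 3 against control gave 2385 features higher and 2289 lower. The main fit gave 5013 and 5241. Day 14 gave 2930 and 2879 in place of 5413 and 5220. Muscle level did not overlap, with 11.5 to 12.14 in control, at most 10.75 at day 3 and at most 10.51 at day 14. The covariate fit therefore cannot tell muscle content from injury.

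**Figure D1:**
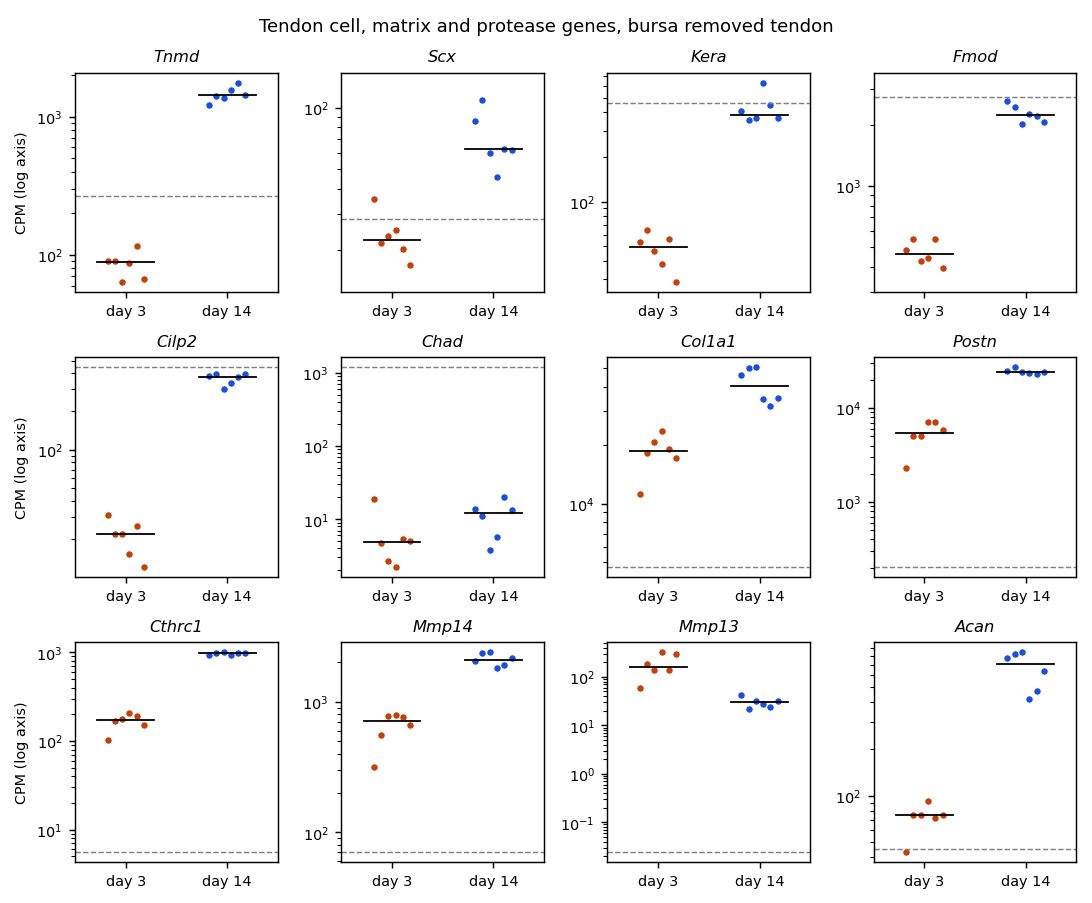
Levels of tendon cell and matrix genes in the 6 day 3 and 6 day 14 libraries with the bursa removed. Each dot is a library, the y axis is CPM on a log scale, black lines are group medians, and dashed grey lines are the mean of the 5 control tendons. Tnmd moves from 63.3 to 116 CPM up to 1215 to 1754 CPM without overlap.

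Fibrillar collagens and the wound matrix rose from a level that was already high at day 3. Of 12 genes tested, 10 rose and 0 fell (median 1.21). Col1a1, the main collagen of tendon, had 11253 to 23522 CPM at day 3 (median 18609) and 31954 to 50221 CPM at day 14 (median 40403). All 6 day 14 libraries were above the highest day 3 library, and the change was 1.17 ± 0.25 (adjusted p = 3.1e-04). Col3a1, the collagen of early scar, changed less (0.68 ± 0.16, adjusted p = 0.0014), with 10934 to 29509 CPM at day 3 and 32106 to 46287 CPM at day 14. Both remained above control tendon at day 14, by 3.13 for Col1a1 and 3.27 for Col3a1. Col5a1 (1.39 ± 0.20) and Col5a2 (1.40 ± 0.17), whose products seed new fibrils, rose too, and Col5a3 (0.20) did not pass.

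Genes typical of activated fibroblasts rose as well. Periostin (Postn), a matricellular protein of healing tissue, had 2312 to 7155 CPM at day 3 and 23267 to 27203 CPM at day 14, and rose by 2.19 ± 0.24 (adjusted p = 3.4e-08). Cthrc1, secreted by scar-forming fibroblasts, had 101 to 206 CPM at day 3 and 930 to 1002 CPM at day 14, a change of 2.55 ± 0.18 (adjusted p = 2.8e-11). Lrrc15, a surface protein of the same cells, rose by 2.27 ± 0.21. All 3 genes were already above control at day 3, by 4.74, 4.89 and 4.43, and stood at 6.92, 7.44 and 6.70 above it at day 14. Tenascin C (Tnc) had overlapping groups, with 1121 to 3270 CPM at day 3 and 1781 to 4682 CPM at day 14. Its rise of 0.72 ± 0.26 (adjusted p = 0.027) was 0.61 (adjusted p = 0.058) without day 3 replicate 1, and it also failed without day 3 replicate 5 and without day 14 replicate 1 or 2.

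Of 14 other collagens, 10 rose and 0 fell (median 1.38). The fibril-associated collagens Col12a1 (1.77 ± 0.21) and Col14a1 (1.42 ± 0.23), which link fibrils to their surroundings, were among them. Col24a1, a minor fibrillar collagen, had 4.27 to 9.47 CPM at day 3 and 33.1 to 55.0 CPM at day 14, a change of 2.77 ± 0.18. Col6a6, a chain of the beaded filament collagen, had 0.483 to 2.03 CPM at day 3 and 37.5 to 60.6 CPM at day 14, and with 5.44 ± 0.38 (adjusted p = 2.5e-11) it was among the 15 largest rises. The basement membrane collagen Col4a1 did not pass (0.06 ± 0.14, adjusted p = 0.77), with 1441 to 2189 CPM at day 3 and 1728 to 2422 CPM at day 14.

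Small leucine-rich proteoglycans, which set the width and spacing of collagen fibrils, rose in 6 of 9 genes and fell in 0 (median 1.39). Besides Fmod and Kera these were osteoglycin (Ogn, 3.37 ± 0.36), asporin (Aspn, 2.11 ± 0.16), biglycan (Bgn, 1.08 ± 0.14) and lumican (Lum, 0.86 ± 0.20). Decorin (Dcn), the best known proteoglycan of tendon, had 860 to 2486 CPM at day 3 and 2259 to 3241 CPM at day 14. Its change was 0.31 ± 0.21 (adjusted p = 0.23), and it was below control tendon on both days (-1.27 and -0.95). In the authors' deposited table Prelp, of the same family, had a log2 change of 0.91.

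Elastic fibre and microfibril genes moved both ways, with 7 of 15 higher and 2 lower (median 0.53). The fibrillin Fbn2, which is made mostly during development, rose by 2.89 ± 0.31, from 10.4 to 25.5 CPM up to 100 to 183 CPM. The microfibril protein Mfap2 rose by 2.68 ± 0.23, from 6.50 to 18.5 CPM up to 60.7 to 81.8 CPM. Ltbp4, which tethers latent TGF-beta to microfibrils, rose by 1.15 ± 0.15 and was still 1.53 lower than control on the log2 scale at day 14. Fbln2, a fibulin, fell by 0.77 on the log2 scale (SE 0.14, adjusted p = 3.9e-05).

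Enzymes that process and crosslink collagen rose in 7 of 13 genes and fell in 0 (median 0.66), or in 1 without day 3 replicate 1. Loxl2, a crosslinking oxidase, had 95.3 to 257 CPM at day 3 and 408 to 669 CPM at day 14, a change of 1.49 ± 0.17. Bmp1, which trims procollagen, rose by 0.93 ± 0.10, from 98.5 to 171 CPM up to 240 to 293 CPM. Plod2, which prepares collagen for stable crosslinks, rose by 0.70 ± 0.21. In the authors' deposited table the procollagen proteases Adamts2 (1.28) and Adamts14 (1.56) were higher at day 14, and the oxidase Lox had a log2 change of -0.20 (adjusted p = 0.46).

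Proteases that cut matrix changed in opposite directions, with 5 of 16 higher and 4 lower (median 0.23). Those counts are near the 24.1% higher and 25.1% lower among all features with a symbol. Mmp2, a gelatinase, had 737 to 2030 CPM at day 3 and 4145 to 5469 CPM at day 14, and rose by 1.59 ± 0.17 (adjusted p = 2.6e-08). Mmp14, the membrane protease that activates it, rose by 1.72 ± 0.16, and Mmp11, of stromal cells, by 2.65 ± 0.32. The collagenase Mmp13 had 59.3 to 324 CPM at day 3 and 22.0 to 42.3 CPM at day 14, and fell by 2.66 on the log2 scale (SE 0.41, adjusted p = 7.9e-06). The stromelysins Mmp3 (-2.52 ± 0.51) and Mmp10 (-2.30 ± 0.54) fell as well, though their groups overlapped. Mmp3 had 26.2 to 340 CPM at day 3 and 19.5 to 83.3 CPM at day 14. Adamts4, which cleaves aggrecan, fell by 1.09 on the log2 scale (SE 0.26).

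The inhibitors of these proteases also split, with 6 of 10 higher and 2 lower (median 0.44), and with 4 higher without day 3 replicate 1. Timp2 had 290 to 483 CPM at day 3 and 1595 to 2327 CPM at day 14, a change of 2.27 ± 0.13 (adjusted p = 4.1e-13). Timp3, the inhibitor that binds to matrix, had 42.4 to 88.2 CPM at day 3 and 325 to 460 CPM at day 14, a change of 2.62 ± 0.17, and did not pass against control at day 14 (0.16, adjusted p = 0.42). Timp1 fell by 1.10 on the log2 scale (SE 0.18), from 239 to 626 CPM down to 154 to 240 CPM. Slpi, an inhibitor of neutrophil elastase, fell by 2.16 on the log2 scale (SE 0.41).

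Some genes of cartilage rose, while the direction for Col2a1, the main collagen of hyaline cartilage, rested on 1 library. Of 9 genes tested, 5 rose and 0 fell (median 2.56). Aggrecan (Acan, a less certain name) had 43.4 to 92.9 CPM at day 3 and 419 to 845 CPM at day 14, a change of 3.20 ± 0.40 (adjusted p = 3.6e-07). Col11a1, a fibril collagen shared by cartilage and growing tendon, had 105 to 178 CPM at day 3 and 1006 to 1352 CPM at day 14, a change of 3.08 ± 0.28. Matn3, a matrilin, rose by 4.07 ± 0.26, from at most 0.626 CPM to 6.88 to 9.91 CPM. These 3 genes had no overlap between the days. Col2a1 had 0.0604 to 92.5 CPM at day 3 (median 0.992) and 4.66 to 11.8 CPM at day 14 (median 9.25), and its change was -0.88 ± 1.08 (adjusted p = 0.54). The 92.5 CPM came from day 3 replicate 6, and without that library the change was 3.65 (adjusted p = 0.0089), so its direction rests on that sample. Col9a3 newly passed as well when replicate 6 was left out (1.73). Sox9, the cartilage transcription factor, did not pass (0.50 ± 0.22, adjusted p = 0.062). It newly passed without day 3 replicate 4 (0.60), day 14 replicate 1 (0.57) or day 14 replicate 4 (0.60). Col10a1, which rose in the main fit, did not pass without day 3 replicate 3, 4 or 5. In control tendon Col2a1 had 26.3 to 459 CPM, above day 14 (day 14 minus control -4.08). In the authors' deposited table Col11a2 had a log2 change of 2.57 and Hapln1, also of the cartilage list, one of -0.01 (adjusted p = 0.99).

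Bone forming cell genes showed 5 of 8 higher and 2 lower (median 0.94), with the 2 lower genes dropping to 0 or 1 in 9 of the 12 fits that each left out 1 library. Alpl (a less certain name), the alkaline phosphatase of mineralising cells, had 0.483 to 4.26 CPM at day 3 and 17.9 to 42.0 CPM at day 14, a change of 3.66 ± 0.33 (adjusted p = 1.2e-09). Sp7, a factor of osteoblasts, rose by 2.65 ± 0.53, and Phex, a peptidase of bone cells, rose by 3.30 ± 0.37, both from under 1 CPM at day 3. The 2 lower genes were Runx2, also a factor of osteoblasts, and Mepe. Runx2 did not pass without day 3 replicate 4 (-0.25), nor did Mepe without day 3 replicate 1 (-0.64). Ibsp newly passed without day 3 replicate 6 (2.54). Among 6 osteoclast genes, 3 rose and 1 fell, and 2 rose without day 3 replicate 1. Ctsk, the collagen-cutting cathepsin that fibroblasts also make, had 72.1 to 166 CPM at day 3 and 514 to 587 CPM at day 14, a change of 2.01 ± 0.15. Oscar, a receptor of osteoclasts and myeloid cells, fell by 3.20 on the log2 scale (SE 0.34), from 1.96 to 5.78 CPM down to 0.272 to 0.635 CPM.

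Among signalling genes, the myofibroblast and TGF-beta list rose in 8 of 14 genes and fell in 1 (median 0.62). The ligand Tgfb3 had 82.9 to 106 CPM at day 3 and 241 to 278 CPM at day 14, a change of 1.51 ± 0.13 (adjusted p = 6.7e-10). The receptor Tgfbr1 fell by 0.53 on the log2 scale (SE 0.12), while its partner Tgfbr2 rose by 0.86. Of the contractile genes Tagln rose (1.00 ± 0.20), and the smooth muscle actin Acta2 did not pass (0.33 ± 0.20, adjusted p = 0.19), with 229 to 359 CPM at day 3 and 301 to 399 CPM at day 14. The insulin-like growth factor axis rose in 5 of 9 genes and fell in 1 (median 0.45). Its binding proteins Igfbp6 (2.03 ± 0.22) and Igfbp5 (1.40 ± 0.20) rose most clearly, Igfbp6 from 89.2 to 159 CPM up to 362 to 579 CPM. In the authors' deposited table the ligands Igf1 (0.60) and Igf2 (0.84) were higher at day 14.

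Secreted modulators of Wnt signalling moved both ways, with 2 of 10 higher and 3 lower (median -0.09), and with 3 higher without day 3 replicate 1. These counts are near the 24.1% higher and 25.1% lower among all features with a symbol. Dkk3 had 59.3 to 102 CPM at day 3 and 670 to 811 CPM at day 14, a change of 3.07 ± 0.19 (adjusted p = 2.0e-12). Sfrp2, a secreted frizzled-related protein, fell by 2.35 on the log2 scale (SE 0.23), from 127 to 228 CPM down to 26.2 to 46.4 CPM, and Sfrp1 fell by 1.69 (SE 0.24). The ligand Wnt16, chosen by its size of change and not from a list, rose by 4.39 ± 0.38, from 1.03 to 3.39 CPM up to 23.2 to 47.5 CPM.

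Lubrication and hyaluronan genes rose in 5 of 11 and fell in 3 (median 0.30). Lubricin (Prg4), the boundary lubricant of gliding surfaces, had 1158 to 3306 CPM at day 3 (median 2668) and 437 to 998 CPM at day 14 (median 508). It fell by 2.10 on the log2 scale (SE 0.28, adjusted p = 8.2e-07) without overlap, and at day 14 it was 1.66 below control on that scale. Has2, which makes hyaluronan, fell by 1.86 on the log2 scale (SE 0.31), from 50.8 to 218 CPM down to 22.6 to 52.3 CPM, with the groups overlapping. Cemip, which binds hyaluronan and drives its breakdown, rose by 2.27 ± 0.26, and the hyaluronidase Hyal1 rose by 1.29 ± 0.15.

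Genes of dividing cells fell. All 17 cell division genes tested fell, without overlap between the 6 and 6 libraries in any of them, with a median of -1.72. Of 19 DNA replication genes, 18 fell and 0 rose (median -0.92). All 17 cell division genes were above control at day 3, and at day 14, 16 of the 17 cell division genes were still higher than control, the exception being the spindle assembly gene Tpx2 (-1.06 for day 14 minus control).

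Many genes of mitosis share promoter letters known from other studies, a CCAAT box and a cell cycle homology element with the core TTTGAA. Promoter windows of 3 cell division genes are therefore shown, from 250 bases before to 50 bases after the start in the RefSeq table of build GRCr8, written 5′ to 3′ on the gene's strand, with capitals marking every TTTGAA or CCAAT on either strand. In Mki67 a match of each kind shares 1 base.
Mki67, chr1:199952544-199952843, minus strand: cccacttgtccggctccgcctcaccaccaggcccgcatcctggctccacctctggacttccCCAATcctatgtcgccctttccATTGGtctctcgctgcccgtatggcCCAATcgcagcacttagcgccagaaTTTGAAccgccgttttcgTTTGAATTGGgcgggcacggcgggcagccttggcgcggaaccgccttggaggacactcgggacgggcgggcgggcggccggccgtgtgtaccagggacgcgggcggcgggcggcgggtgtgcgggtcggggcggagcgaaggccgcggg
Plk1, chr1:186147408-186147707, plus strand: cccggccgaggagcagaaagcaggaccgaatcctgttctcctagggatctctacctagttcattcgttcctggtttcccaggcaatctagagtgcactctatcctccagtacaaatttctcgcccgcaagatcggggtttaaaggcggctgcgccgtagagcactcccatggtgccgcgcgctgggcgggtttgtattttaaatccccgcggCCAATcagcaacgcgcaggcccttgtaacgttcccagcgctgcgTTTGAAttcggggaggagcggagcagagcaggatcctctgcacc
Cdc20, chr5:137255750-137256049, minus strand: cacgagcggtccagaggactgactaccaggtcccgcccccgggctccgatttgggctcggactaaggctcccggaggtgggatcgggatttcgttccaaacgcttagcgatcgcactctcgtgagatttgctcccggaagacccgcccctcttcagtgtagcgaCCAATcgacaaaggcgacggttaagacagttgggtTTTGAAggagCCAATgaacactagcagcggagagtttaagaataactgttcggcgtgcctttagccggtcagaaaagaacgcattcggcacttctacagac
Of the 17 genes, 15 were in that table. TTTGAA was found in 9 of these 15 (60.0%) and in 18.3% of all 33469 windows, CCAAT in 12 of 15 (80.0%) and in 37.5% of all windows, and both in 8 of 15 (53.3%) and in 7.41%. A match is a description of letters and not a sign that a factor binds there.

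Mki67, a protein of dividing nuclei, had 112 to 190 CPM at day 3 (median 173), 35.0 to 67.1 CPM at day 14 (median 47.1) and 5.10 to 7.38 CPM in control tendon. It fell by 1.73 on the log2 scale (SE 0.15, adjusted p = 4.3e-10) and was still 3.02 above control at day 14. Plk1, a kinase of mitosis, had 14.6 to 28.4 CPM at day 3 and 3.08 to 7.73 CPM at day 14, a change of -2.07 ± 0.21 (adjusted p = 1.3e-08). Cdc20, which triggers the separation of chromosomes, went from 19.1 to 34.8 CPM down to 6.55 to 10.6 CPM, a change of -1.71 ± 0.16. The smallest fall of the list was that of the checkpoint kinase Bub1 (-1.34 ± 0.12). The replication helicase subunit Mcm5 fell by 1.76 on the log2 scale (SE 0.20), and the sliding clamp Pcna, which also serves DNA repair, by 0.69 (SE 0.10). The chromatin assembly factor Chaf1b did not pass (-0.13 ± 0.14, adjusted p = 0.50). In the authors' deposited table, which holds further genes without a matched transcript, Cdk1 (-1.84), Ube2c (-1.80), Aurkb (-1.65) and Nusap1 (-1.42) were lower too.

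**Figure D2:**
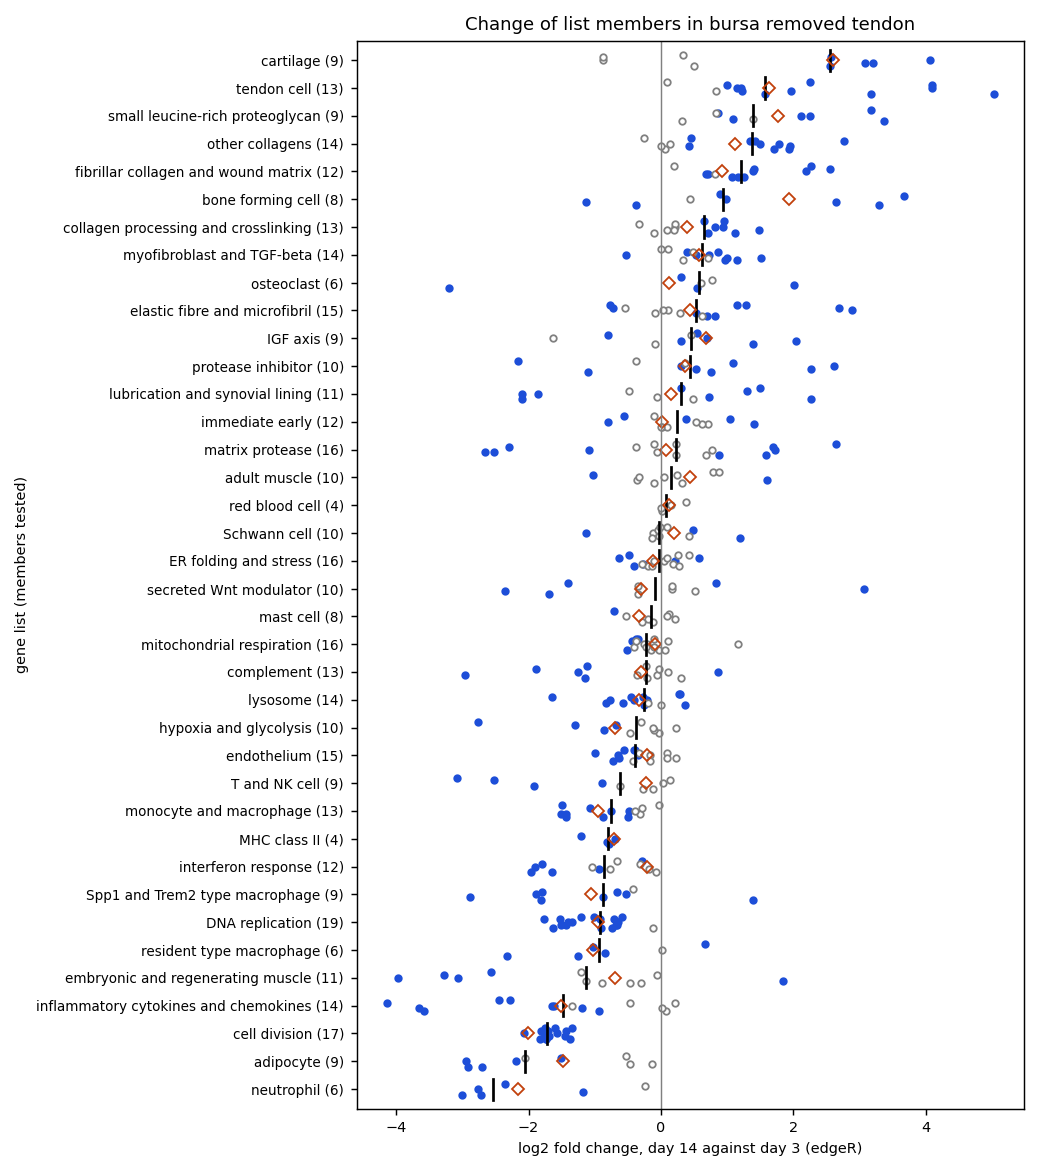
Log2 change of day 14 over day 3 with the bursa removed for each tested member of 38 gene lists. Each circle is a gene, filled where its adjusted p was under 0.05, the black bar is the list's median, and the orange diamond is the same median in tendons with the bursa intact. Tendon cell and collagen lists lie to the right (medians 1.58 and 1.21) and the cell division list to the left (median -1.72).

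Inflammatory cytokines and chemokines fell in 9 of 14 genes and rose in 0 (median -1.48). Ccl7, which attracts monocytes, had 37.9 to 152 CPM at day 3 and 5.02 to 12.5 CPM at day 14, a change of -3.58 ± 0.34 (adjusted p = 3.2e-09). The related Ccl2 fell by 2.44 on the log2 scale (SE 0.40), from 36.5 to 159 CPM down to 12.2 to 25.9 CPM, and did not pass against control at day 14 (0.27, adjusted p = 0.60). Il6, a cytokine of the acute phase, had 3.14 to 10.3 CPM at day 3 and 0.116 to 1.09 CPM at day 14, a change of -3.66 ± 0.51. The groups of these 3 genes did not overlap. Il1b had low counts and overlapping groups, with 1.83 to 5.14 CPM at day 3 and 0.830 to 3.56 CPM at day 14 (-0.94 ± 0.32, adjusted p = 0.017). Its natural antagonist Il1rn fell by 1.65 on the log2 scale (SE 0.25). Ptgs2, the inducible enzyme of prostaglandin synthesis, did not pass (0.08 ± 0.47, adjusted p = 0.91) and was 4.31 above control at day 14, and Lif did not pass either (0.21 ± 0.33, adjusted p = 0.64).

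Markers of neutrophils were low and fell in 5 of 6 genes (median -2.54), with a summed level of 24.0 to 55.3 CPM at day 3 and 6.04 to 8.64 CPM at day 14. Csf3r, the receptor for the neutrophil growth factor, had 11.9 to 24.9 CPM at day 3 and 2.33 to 3.71 CPM at day 14, a change of -2.77 ± 0.22 (adjusted p = 1.4e-10). S100a8, an abundant protein of neutrophils, was at most 1.59 CPM at day 3 and at most 0.290 CPM at day 14. Cxcr2, a chemokine receptor of these cells, did not pass (-0.24 ± 0.50, adjusted p = 0.72).

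Monocyte and macrophage genes fell in 9 of 13 and rose in 0 (median -0.76), and their summed level went from 2790 to 6852 CPM at day 3 to 2099 to 3535 CPM at day 14. The groups of that sum overlapped through day 3 replicate 1, which held the lowest day 3 value. In mean log2 CPM over the 13 genes they did not overlap, with 6.377 to 7.105 at day 3 and 5.941 to 6.281 at day 14. The exact permutation test (two-sided) of that mean gave p = 0.00217, the smallest value possible. The lysosomal protein Cd68 had 84.3 to 155 CPM at day 3 and 42.2 to 56.3 CPM at day 14, a change of -1.44 ± 0.16 (adjusted p = 3.6e-08). The adaptor Tyrobp fell by 1.51 on the log2 scale (SE 0.19), and the Fc receptor Fcgr1a by 1.43 (SE 0.16). The complement genes C1qa (-0.40, adjusted p = 0.060), C1qb (-0.28, adjusted p = 0.11) and C1qc (-0.04, adjusted p = 0.88) and the macrophage surface gene Adgre1 (-0.31, adjusted p = 0.12) did not pass. C1qc had 101 to 167 CPM at day 3 and 123 to 134 CPM at day 14.

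Within macrophage subtypes the members were uneven. Of 6 genes of resident type macrophages 4 fell and 1 rose. Siglec1, a lectin of such cells, had 24.4 to 78.2 CPM at day 3 and 5.02 to 11.1 CPM at day 14, a change of -2.32 ± 0.27. The scavenger receptor Cd163 (-1.25 ± 0.24) and the folate receptor Folr2 (-1.02 ± 0.14) fell, Lyve1 did not pass (0.01, adjusted p = 0.98), and the clotting factor subunit F13a1 rose (0.66 ± 0.22, adjusted p = 0.018). Of 9 genes of the Spp1 and Trem2 type, 7 fell and 1 rose. Gpnmb, a glycoprotein of lipid-laden macrophages, had 637 to 1015 CPM at day 3 and 195 to 266 CPM at day 14, a change of -1.89 ± 0.18 (adjusted p = 1.9e-09). Trem2 itself fell by 0.88 on the log2 scale (SE 0.16), osteopontin (Spp1, a less certain name) by 1.81 (SE 0.39), and the tetraspanin Cd9, which fibroblasts also make, rose by 1.39 ± 0.13. Arg1, the arginase of repair macrophages, had 7.40 to 56.1 CPM at day 3 and 1.80 to 5.93 CPM at day 14 (-2.88 ± 0.54).

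Lymphocyte genes fell in part. Of 9 T and NK cell genes, 4 fell and 0 rose (median -0.63). Cd8a, of cytotoxic T cells, had 4.80 to 6.71 CPM at day 3 and 0.342 to 1.34 CPM at day 14, a change of -2.53 ± 0.36 (adjusted p = 1.8e-06), and its partner Cd8b fell by 3.09 on the log2 scale (SE 0.35). The T cell receptor subunit Cd3g did not pass (-0.63 ± 0.51, adjusted p = 0.33), nor did Cd4 (-0.12, adjusted p = 0.56), which rat macrophages also carry. All 4 MHC class II genes tested fell, among them the invariant chain Cd74 (-0.78 ± 0.22), and all 4 were still above control at day 14. In the authors' deposited table RT1-Db1 (-0.713), RT1-DMb (-1.145) and Ciita (-1.047) of this list were lower too, and RT1-Bb did not pass (-0.317, adjusted p = 0.31). Of 8 mast cell genes 1 fell, and in the authors' deposited table Hdc, a further gene of that list, was lower (-3.02, adjusted p = 1.8e-06).

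**Figure D3:**
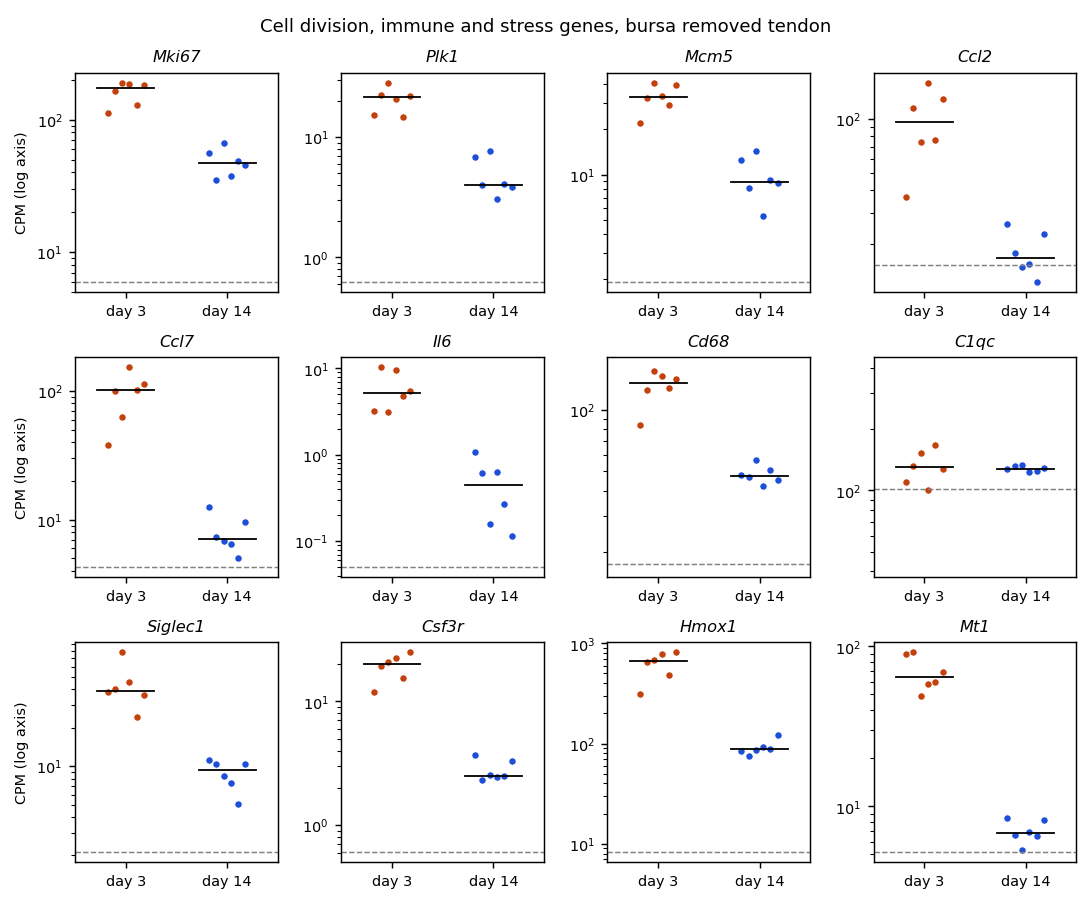
Levels of cell division, cytokine, macrophage and metallothionein genes in the day 3 and day 14 libraries with the bursa removed. Each dot is a library, the y axis is CPM on a log scale, black lines are medians, and dashed grey lines are the mean of the 5 control tendons. Most genes shown fall without overlap, while C1qc stays between 101 and 167 CPM at both days.

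Beyond the lists, the 15 largest falls and 15 largest rises among symbols without overlap and with at least 10 CPM in the higher group were examined. Secreted immune proteins among the falls were Fcnb, a ficolin of monocytes and neutrophils (-5.06 ± 0.53, from 8.25 to 68.7 CPM down to 0.317 to 1.74 CPM), the long pentraxin Ptx3 (-2.96 ± 0.36) and the chitinase-like Chi3l1 (-2.98 ± 0.36). Coch, which encodes the secreted protein cochlin, fell most, from 5.48 to 38.2 CPM at day 3 to at most 0.342 CPM at day 14 (-6.48 ± 0.70, adjusted p = 2.6e-08). Its day 3 level did not pass against control (-0.34, adjusted p = 0.56), and its day 14 level was 6.81 below control on the log2 scale. The secreted phospholipase Pla2g2a had 120 to 412 CPM in control tendon, 6.99 to 17.6 CPM at day 3 and 1.41 to 2.98 CPM at day 14. Cyp4b1, a cytochrome that oxidises fatty acids, fell by 3.16 on the log2 scale (SE 0.27).

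The metallothionein genes Mt2A and Mt1 were among the 15 largest falls. Metallothioneins are small proteins that bind zinc and copper, and their genes respond to metals, glucocorticoids and inflammation. Mt2A had 105 to 206 CPM at day 3 and 10.2 to 18.4 CPM at day 14, a change of -3.52 ± 0.33 (adjusted p = 2.3e-09). Mt1 had 49.2 to 91.9 CPM at day 3 and 5.29 to 8.39 CPM at day 14, a change of -3.32 ± 0.25 (adjusted p = 6.3e-11). Both were above control at day 3 (2.58 and 3.72), and at day 14 Mt2A was below it (-0.94, adjusted p = 0.012) while Mt1 did not pass (0.40, adjusted p = 0.19). Mt3, the family's brain form, named here after its values were seen, rose by 2.70 ± 0.27 from at most 0.884 CPM to 3.51 to 4.92 CPM. Since Mt1 and Mt2A moved together, their promoter windows are shown, from the same table and with the same bounds, with capitals marking the metal response core TGCACNC or TGCGCNC on either strand.
Mt1, chr19:10832926-10833225, minus strand: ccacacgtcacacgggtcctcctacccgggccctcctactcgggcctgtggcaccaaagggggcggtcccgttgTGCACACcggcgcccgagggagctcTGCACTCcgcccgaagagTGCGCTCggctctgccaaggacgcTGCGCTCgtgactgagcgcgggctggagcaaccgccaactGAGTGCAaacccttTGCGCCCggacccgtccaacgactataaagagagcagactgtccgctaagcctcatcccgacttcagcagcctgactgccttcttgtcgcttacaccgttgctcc
Mt2A, chr19:10838659-10838958, minus strand: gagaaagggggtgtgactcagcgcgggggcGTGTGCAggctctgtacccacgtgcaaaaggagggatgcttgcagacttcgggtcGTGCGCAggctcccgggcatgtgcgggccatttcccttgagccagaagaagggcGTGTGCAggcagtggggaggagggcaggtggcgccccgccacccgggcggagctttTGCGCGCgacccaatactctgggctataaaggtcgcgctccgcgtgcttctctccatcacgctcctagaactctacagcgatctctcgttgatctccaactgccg
Mt1 held 6 matches and Mt2A 4, and 24.2% of all windows in the table held at least 1.

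Haem oxygenase (Hmox1), which degrades haem, fell as well, from 309 to 816 CPM at day 3 to 74.6 to 122 CPM at day 14 (-2.77 ± 0.25, adjusted p = 1.3e-09), and stayed 3.44 above control. It is 1 of 4 genes that fell among 10 of hypoxia and glycolysis (median -0.38), with Hk2 (-0.86 ± 0.13), Eno1 (-0.68 ± 0.12) and the oxygen sensor Egln3 (-1.31 ± 0.33). The 4 haemoglobin and red cell genes tested did not pass, and their summed level was 71.3 to 148 CPM at day 3 and 52.5 to 228 CPM at day 14. The haemoglobin copies Hba-a1 and Hba-a2 are near-identical, so their counts are uncertain. Lysosome genes fell in 9 of 14 and rose in 3, with Ctsz at -1.65 ± 0.12, Ctsd at -0.84 ± 0.07 and Lamp2 at 0.36 ± 0.11.

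Among the largest rises, Pamr1, a secreted protein named for regenerating muscle, led with 1.99 to 4.53 CPM at day 3 and 318 to 414 CPM at day 14 (adjusted p = 3.1e-13), a log2 change of 6.91 to 7.17 over the fits that each left out 1 library. It had 15.1 to 31.1 CPM in control tendon, so it was below control at day 3 (-3.03) and above it at day 14 (3.97). The potassium channel subunit Kcng1 rose by 6.35 ± 0.34, from at most 0.271 CPM to 12.1 to 17.9 CPM. The sulfotransferase Chst5, which acts on keratan sulfate sugars, rose by 5.44 ± 0.28 to 23.4 to 32.2 CPM. Gas2, a cytoskeletal protein, rose by 4.31 ± 0.21, from 3.50 to 6.28 CPM up to 79.8 to 125 CPM, and Fndc1, with fibronectin type domains, by 3.54 ± 0.22, from 160 to 297 CPM up to 2210 to 3188 CPM. Wfdc1, Stmn4 and Cpne4 rose by 3.98, 3.73 and 5.21. The actin gene Actg1 was also in this group (5.89 ± 1.53), but it has near-identical copies, day 3 replicate 5 held 8.13 CPM while the other 5 held at most 0.11 CPM, and leaving that library out moved the change to 11.45, so its value is uncertain.

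Muscle genes divided by kind. The 10 adult muscle genes tested were below control at both days, and 1 rose and 1 fell between the days (median 0.14). Acta1, the actin of the muscle fibre, had 877 to 9070 CPM at day 3 and 1057 to 5219 CPM at day 14 (-0.36 ± 0.46, adjusted p = 0.56). The highest value was again day 3 replicate 1, and without this library 3 genes rose and 0 fell, namely Pvalb (2.33), Casq1 (1.53) and Mylpf (1.36). The single fall, that of the calcium release channel Ryr1 (-1.03 ± 0.36, adjusted p = 0.022), became -0.48 (adjusted p = 0.22) without it, and it also did not pass without day 14 replicate 1, 3 or 5. The rise of Pvalb (1.60 ± 0.52, adjusted p = 0.014) did not pass without day 14 replicate 4 (1.15).

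Of 11 embryonic and regenerating muscle genes, 4 fell and 1 rose (median -1.14). The receptor subunit Chrna1 had 16.7 to 54.9 CPM at day 3 (median 20.4), 0.754 to 2.33 CPM at day 14 (median 1.54) and 2.61 to 6.08 CPM in control tendon. It fell by 3.98 on the log2 scale (SE 0.36, adjusted p = 1.7e-09), from above control (2.80) to below it (-1.18, adjusted p = 0.0085). Its partner Chrnd (-3.28 ± 0.34), the muscle transcription factors Myog (-3.07 ± 0.42) and Myf5 (-2.56 ± 0.39) and, outside the list, the phosphatase inhibitor Ppp1r14c (-3.83 ± 0.36) and the small GTPase Rrad (-3.14 ± 0.43) fell as well. All 6 genes were highest in day 3 replicate 1, the library with the most adult muscle RNA of its group. A fit with the adult muscle level as a covariate was run, but its values for these 6 genes are not given here. The cause of these changes was not tested. Without that library Chrna1 changed by -3.58 (adjusted p = 1.0e-09), Chrnd by -2.98, Ppp1r14c by -3.40, Rrad by -2.65 and Myog by -2.59. Myod1 (-0.06, adjusted p = 0.92) and Pax7 (-0.47, adjusted p = 0.54), a factor of muscle stem cells, did not pass, and the perinatal myosin Myh8 rose (1.85 ± 0.57, adjusted p = 0.0092) at 1.09 to 6.55 CPM.

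The window of Chrna1 is shown because its gene turned from above to below control, with capitals marking CAGCTG, an E-box of the kind that muscle factors such as Myog are known to bind.
Chrna1, chr3:78877304-78877603, minus strand: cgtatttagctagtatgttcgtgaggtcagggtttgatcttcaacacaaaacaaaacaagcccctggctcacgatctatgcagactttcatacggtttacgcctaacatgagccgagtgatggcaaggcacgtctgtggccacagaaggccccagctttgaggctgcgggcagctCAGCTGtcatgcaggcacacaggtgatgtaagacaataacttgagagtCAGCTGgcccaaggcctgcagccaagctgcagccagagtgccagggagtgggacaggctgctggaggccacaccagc
It held 2 matches, and 15.1% of all windows held at least 1.

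**Figure D4:**
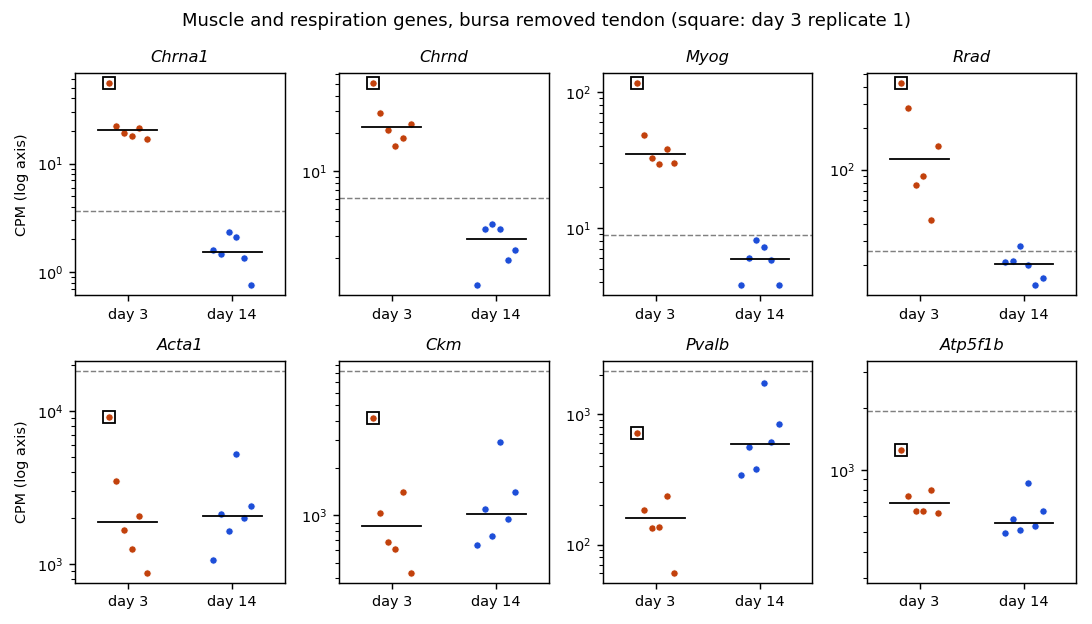
Levels of muscle and acetylcholine receptor genes in the day 3 and day 14 libraries with the bursa removed. Each dot is a library, the square is day 3 replicate 1, the y axis is CPM on a log scale, black lines are medians, and dashed grey lines are the mean of the 5 control tendons. Chrna1 lies at 16.7 to 54.9 CPM at day 3 and at 0.754 to 2.33 CPM at day 14, while Acta1 overlaps.

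Nuclear genes of mitochondrial respiration moved with that library. Of 16 tested, 4 fell, near the 25.1% of all features with a symbol, and 0 rose (median -0.22). All 16 were below control on both days. Their summed level in day 3 replicate 1 was 4741 CPM, against 2283 to 2861 CPM in the other day 3 libraries and 1921 to 3614 CPM at day 14. Without this library 0 fell and 1 rose, and the ATP synthase subunit Atp5f1b changed by -0.17 (adjusted p = 0.32) instead of -0.37. The fall of Atp5f1b also missed the threshold when day 3 replicate 2 or 5 or day 14 replicate 1, 2, 3, 5 or 6 was left out. Without day 14 replicate 4 the number lower was 8, and it was 0 without day 14 replicate 1, 2, 3 or 5.

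Fat, vessel and nerve genes gave smaller or less stable changes. Of 9 adipocyte genes, 5 fell and 0 rose (median -2.05), and the summed level was 170 to 907 CPM at day 3 and 144 to 296 CPM at day 14. The 907 CPM came from day 3 replicate 5, the other 5 libraries held at most 403 CPM, and without replicate 5 only 1 gene fell, the hormone gene Adipoq (a less certain name, -1.66, adjusted p = 0.019). Endothelial genes fell in 8 of 15 and rose in 0 (median -0.39), with a summed level of 1257 to 1972 CPM at day 3 and 1026 to 1238 CPM at day 14. The vascular cadherin Cdh5 had 210 to 340 CPM at day 3 and 137 to 218 CPM at day 14 (-0.73 ± 0.17, adjusted p = 9.1e-04), and the apelin receptor Aplnr fell by 1.00 on the log2 scale (SE 0.24). Of 10 Schwann cell genes 2 rose and 1 fell. S100b, which cartilage and other cells also make, rose by 1.19 ± 0.19, and the nerve growth factor receptor Ngfr fell by 1.13 on the log2 scale (SE 0.24).

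Interferon response genes fell in 6 of 12 (median -0.86), among them the chemokine Cxcl9 (-1.90 ± 0.25) and the antiviral Mx1, which had 3.70 to 37.0 CPM at day 3 and 1.52 to 8.58 CPM at day 14 (-1.96 ± 0.52). Complement and pentraxin genes fell in 5 of 13, with C3 at -1.89 ± 0.49, and rose in 1, clusterin (Clu, 0.87), which did not pass without day 3 replicate 3, 4 or 6 or day 14 replicate 2 or 3. Immediate early genes rose in 3 of 12 and fell in 2, of which Dusp1 (1.41 ± 0.33) and Atf3 (1.04 ± 0.25) rose most, and the 2 falls dropped to 0 or 1 when single libraries were left out. Genes of protein folding in the endoplasmic reticulum rose in 2 of 16 and fell in 4 (median -0.03). Counts of the immediate early and folding lists were near or below the 24.1% higher and 25.1% lower among all features with a symbol.

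The last question was whether the change from day 3 to day 14 differed when the bursa was left in place. In the 6 and 6 tendons with the bursa intact 43.2% of features changed by the same rule (21.4% higher and 21.7% lower), against 45% with it removed. The test of the difference itself, removed minus intact, called 0 of 16302 features in edgeR, and 247 (1.52%) had an unadjusted p under 0.05. DESeq2 called 0 as well (257 unadjusted). Removed and intact libraries of the same number deviated together in part, with correlations of 0.0853 to 0.255 at day 14, where 6 of 6 matched their own number best, and of 0.0526 to 0.368 at day 3, where 4 of 6 did. With day and replicate number taken as the animal, which the labels do not state, 0 of 15928 were called and 697 (4.38%) had an unadjusted p under 0.05. A difference that misses this threshold is not shown to be absent.

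Values for the listed genes are set side by side. Tnmd changed by 4.09 ± 0.29 with the bursa removed and 3.79 ± 0.29 with it intact, a difference of 0.30 ± 0.37. Mki67 changed by -1.73 and -2.01 (difference 0.28 ± 0.20), Prg4 by -2.10 and -2.23 (0.14 ± 0.38), and Col1a1 by 1.17 and 0.79 (0.38 ± 0.34). All 17 cell division genes fell and 11 of 13 tendon cell genes rose in the intact tendons too. Among 422 listed genes tested, 9 had an unadjusted p under 0.05 for the difference. Chrna1 was one of them, with -3.98 removed and -2.79 intact (difference -1.19 ± 0.48, unadjusted p = 0.021), and Tgfb3 another, with 1.51 and 1.09 (0.42 ± 0.18, unadjusted p = 0.028). The bone gene Alpl changed by 3.66 and 4.60 (-0.94 ± 0.46, unadjusted p = 0.050), and outside the lists Stmn4, a regulator of microtubules, by 3.73 and 2.39 (1.34 ± 0.41, unadjusted p = 0.0028). Their adjusted p was 1.00 in each case.

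**Figure D5:**
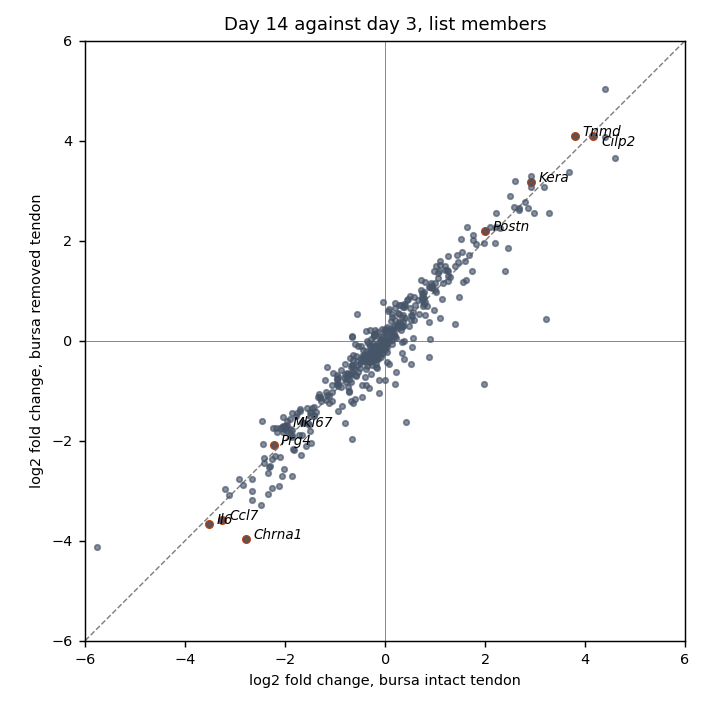
Log2 change of day 14 over day 3 with the bursa removed (y axis) against the same change with the bursa intact (x axis) for the 422 listed genes tested. Each point is a gene, orange points are named, and the dashed line marks equal change. The points lie along the line, and 380 of 422 have the same sign in both.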

How the data were processed

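RNA was read as poly-A libraries. Per the submitters' processing notes, bcl2fastq 2.19, kallisto 0.44.0 and DESeq2 were used. The deposited table holds estimated counts for 31715 transcripts, with no genome build stated in the labels or headers. The authors' deposited gene tables hold, per the file headers, a mean normalised signal over the libraries of each comparison, log2 fold changes with standard errors, a test score, and p-values with their adjusted form. Transcripts carry no symbol, so symbols were assigned where counts reproduced a deposited gene mean, for 13316 of 23747 symbols, with an expected 0.105% wrong. Among symbols with a mean of at least 50, 91.2% were named.

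Counts were rounded, filtered with filterByExpr, given TMM factors, and tested by the quasi-likelihood method of edgeR 4.0.16 in R 4.3.3 across 29 tendon libraries in 5 groups. DESeq2 1.42.0 was an alternative. Scripts were tested on simulated data. Named genes were the 15 highest and 15 lowest symbols that passed, had no overlap and averaged 10 CPM or more in the higher group, plus 531 genes in 39 lists, of which 422 were tested. The members and lists were chosen with earlier results of these data known. Same-numbered day 3 and day 14 libraries did not pair (correlations of deviations -0.157 to 0.133).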

Additional observations from a re-analysis of the deposited data

Results flagged for a closer look

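Single libraries that lay far from the other 5 of their group (Dixon's test at the 95% level) were found in 9 of 90 groups of values, and chance alone flags about 1 in 20. Day 3 replicate 1 accounted for 5 of them. Its mitochondrial share was 25.38% against 11.71 to 15.46%, its lubrication list level was 5.285 (mean log2 CPM) against 5.696 to 5.875, Chrna1 was 54.94 CPM against 16.7 to 22.26 CPM, Ppp1r14c was 36.2 CPM against 10.09 to 15.52 CPM, and Myog was 116.0 CPM against 29.66 to 48.5 CPM. Day 3 replicate 6 had a cartilage list level of 2.656 (mean log2 CPM) against 0.6476 to 1.019. Day 3 replicate 5 had 8.132 CPM of Actg1 against at most 0.1095 CPM. Arg1 was 56.05 CPM in day 3 replicate 4 against 7.403 to 22.26 CPM, and 5.929 CPM in day 14 replicate 5 against 1.804 to 2.783 CPM. What sets these libraries apart was not tested.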

How the results depend on the processing

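The counts of features that rose and fell stayed within 1.5 times of 3652 and 3686 under every alternative run, with 3002 and 2920 under the replicate block, 3647 and 3942 in DESeq2, and 3366 to 3798 and 3254 to 3646 when each library was left out. Among named genes and list counts, 514 results kept their direction and side of the threshold in DESeq2, while 5 newly passed and 1 count moved. Under the replicate block 463 kept theirs, 28 no longer passed, 7 newly passed and 9 counts moved. The replicate number did not pair day 3 with day 14, since 1 of 6 libraries correlated best with its own number. The difference between removed and intact tendon stayed at 0 calls throughout. With the muscle level as a covariate in day 14 against day 3, 472 results for named genes and list counts kept their direction and side of the threshold. Another 32 newly passed, 9 no longer passed and 7 counts moved. For the control comparisons that covariate was an alternative added after seeing the data. There day 3 against control gave 2385 higher and 2289 lower, and day 14 against control gave 2930 higher and 2879 lower. Muscle level did not overlap between control and bursa removed libraries, so that fit cannot tell muscle content from injury. The cause was not tested. The change of Col2a1 ran from -1.1357 to 3.6472 over the left-out libraries and reversed without day 3 replicate 6. The adipocyte level changed by -1.275 to -0.6347 over the left-out libraries, and the lubrication level by 0.3188 when the median over members replaced the mean. Counts are estimates for transcripts, so genes under 1 CPM are the least precise.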
